A study of Homo sapiens with 9 samples.

Results

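The transcripts of 10 myeloid granule proteins were followed in MOLM-13 cells: MPO, ELANE, PRTN3, AZU1, CTSG, LYZ, RNASE2, SLPI, SERPINB1 and SRGN. They were taken by symbol from the 56541 genes of the count table, in which each had a single row, and all 10 passed the filter on low counts in both comparisons. MOLM-13 is an established human acute myeloid leukaemia line with monocytic features. The data held 9 libraries in 3 groups of 3. RNA-seq was made of shCONTROL cells, which carry a control hairpin, and of shBCLAF1 cells, whose hairpin targets BCLAF1. The RIP group was sequenced from RNA immunoprecipitated with BCLAF1 out of cells labelled shCONTROL. BCLAF1 is a nuclear protein that binds RNA. All groups had 4 days of doxycycline at 200 ng/µL. The labels do not say whether the lines are clones or pools, whether replicates were separate cultures, or how many hairpins were used, and p-values therefore measure the spread between these samples, which may be technical.

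Granule proteins are stored until the cell degranulates or kills a microbe in a phagosome. Azurophil (primary) granules are filled first, at the promyelocyte stage, and carry myeloperoxidase, which makes hypochlorous acid, and a family of neutrophil serine proteases: neutrophil elastase (ELANE), proteinase 3 (PRTN3), cathepsin G (CTSG) and their relative azurocidin (AZU1), which has lost its catalytic activity. Lysozyme (LYZ) cleaves bacterial cell walls, RNASE2 is a ribonuclease best known from eosinophil granules, SLPI is a secreted inhibitor of elastase and cathepsin G, SERPINB1 is a cytosolic inhibitor of the same proteases, and serglycin (SRGN) is the proteoglycan that packs cationic granule proteins. C/EBP factors, PU.1 and MYB are known regulators of many of these genes, and specific (secondary) granule genes are normally switched on later than azurophil genes.

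Library totals ran from 25819144 to 36635268 estimated counts. BCLAF1 itself measured 322 CPM (CPM are counts relative to library size, scaled by TMM) in shCONTROL and 113 in shBCLAF1 on average, a log2 fold change of -1.50 (edgeR quasi-likelihood adjusted p = 2.06e-04). Of the 10 markers of myeloid leukaemia cells, CD34 and KIT were at 0 in all 9 libraries and the other 8 were counted. Markers of other cell types were partly counted. Of the monocyte and macrophage markers 4 of 10 were at 0 in all 9 libraries, CD14 and CD163 among them, and the list summed to 126 to 152 CPM in control libraries, 126 to 180 after knock-down and 116 to 135 in RIP libraries. Of the T, B and NK cell markers 5 of 11 were at 0, CD3E and MS4A1 among them, with sums of 217 to 225, 188 to 212 and 171 to 213 CPM in the same order. Of the neutrophil markers 5 of 8 were at 0, with sums of 241 to 268, 252 to 254 and 142 to 208 CPM. Most of these sums was CSF3R, which averaged 242, 235 and 159 CPM in the same order. The epithelial, fibroblast and endothelial list had 7 of 10 at 0, EPCAM among them, with sums of 183 to 195, 216 to 258 and 422 to 665 CPM. Nearly all of that sum was PECAM1, which myeloid cells also express; it was higher after knock-down (log2 fold change 0.35, edgeR adjusted p = 0.0147) and in the RIP (1.42, 0.00206), and the keratin gene KRT18 was higher after knock-down (1.10, 0.00365). Of the erythroid and megakaryocyte markers 6 of 10 were at 0, HBB among them. The haemoglobin genes HBA1 and HBA2 were at 0 in the 6 RNA-seq libraries and held 66, 35 and 77 counts (HBA1) and 993, 0 and 1660 counts (HBA2) in RIP replicates 1, 2 and 3. The part of these markers in the results on granule transcripts was not tested. In bulk samples fewer cells of a type and less RNA per cell cannot be told apart.

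The label of the group was checked against other granule genes. Of 48 other granule cargo genes in the table, 17 were at 0 in all 9 libraries. Among these were the specific-granule genes LTF (lactoferrin), LCN2, MMP8, OLFM4, CEACAM8 and TCN1, and the defensin genes DEFA1, DEFA1B, DEFA3 and DEFA4. How reads common to closely related genes, such as these defensin genes, were assigned is not given, so their 0 values may not mean absence. CAMP, another specific-granule gene, held 11 counts in shBCLAF1 replicate 1 and 0 in the other 8 libraries. SLPI, which neutrophils store with specific-granule proteins, was thus counted in cells where LTF, LCN2, MMP8, OLFM4, CEACAM8 and TCN1 were listed at 0. Other genes of the specific, gelatinase and secretory list were counted too, with CHI3L1 at 184 CPM and QSOX1 at 207 CPM in shCONTROL on average. The 10 transcripts together took 0.673% ± 0.0454 of all shCONTROL counts, 1.19% ± 0.0267 of shBCLAF1 counts and 0.167% ± 0.0158 of RIP counts (mean ± SD of 3 libraries). Every shBCLAF1 library lay above every shCONTROL library in this share, and every RIP library lay below. Counts were not corrected for transcript length, so levels are not compared between genes.

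Knock-down libraries were set against control libraries to see how granule transcripts differed where BCLAF1 RNA was reduced, to 35.3% of control in the fit. Of the 10 granule transcripts, 8 rose and 0 fell at an adjusted p under 0.05 (edgeR's quasi-likelihood F-test over 16961 genes, with Benjamini-Hochberg adjustment). Of all genes tested 15.5% were higher and 16.9% lower, or 32.3% in either direction. DESeq2 called 9 higher and 0 lower, and at an unadjusted p under 0.05 edgeR gave 9 higher and 0 lower. The median log2 fold change of the 10 was 0.55, against 0.017 over all genes tested. In the plot of levels by library SLPI and LYZ stood far above control, AZU1, SRGN, SERPINB1, ELANE and RNASE2 stood apart from control by smaller steps, and PRTN3, CTSG and MPO lay close to it. SLPI, LYZ and AZU1, 3 of the 10, passed with a rise of 1 or more on the log2 scale, against 1.81% of all genes, and 0 of the 10 fell that far, against 2.29%.

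**Figure D1:**
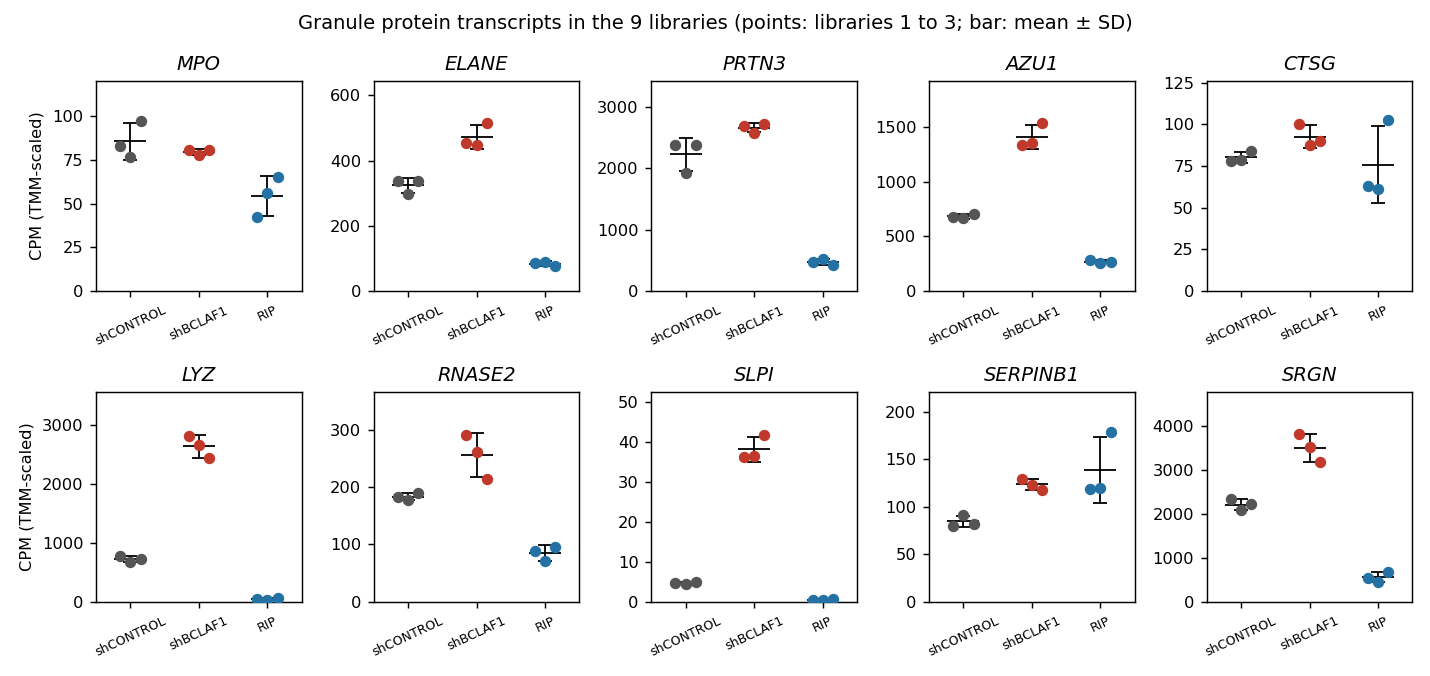
Levels of the 10 granule transcripts in each library, in TMM-scaled CPM on linear axes that start at 0; points are libraries, and bars are the mean ± SD of 3. SLPI rises from about 4.79 to 38.2 CPM and LYZ from 729 to 2637 after knock-down, while all RIP points of LYZ lie at 60.3 CPM or below.

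Among the serine protease family, AZU1 changed most. AZU1 (ENSG00000172232, chromosome 19, 827837 to 832018) measured 674, 667 and 708 CPM in shCONTROL replicates 1, 2 and 3 and 1338, 1354 and 1537 in shBCLAF1. The groups did not overlap, and the log2 fold change was 1.05 (SE 0.063, adjusted p = 2.38e-04), a 2.07-fold rise. ELANE (ENSG00000197561, chromosome 19, 852303 to 856243) measured 338, 296 and 338 CPM in shCONTROL and 454, 447 and 515 in shBCLAF1. All 3 shBCLAF1 libraries were above all controls, and the log2 fold change was 0.55 (SE 0.077, adjusted p = 0.00327).

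PRTN3 (ENSG00000196415, chromosome 19, 840999 to 848175) measured 2376, 1921 and 2388 CPM in shCONTROL and 2695, 2582 and 2716 in shBCLAF1. Its groups did not overlap either, as held for 24.2% of all genes in this direction, but shCONTROL replicate 2 lay well under the other controls, and the log2 fold change of 0.26 (SE 0.089) did not pass (adjusted p = 0.0700). Without shCONTROL replicate 2 it was 0.17 and passed (adjusted p = 0.0305), and it also passed with DESeq2 (0.0137) and with total counts as the scale (0.0368), over alternatives from 0.0137 to 0.635. CTSG (ENSG00000100448, chromosome 14, 24573518 to 24576250) measured 78.3, 78.5 and 83.8 CPM in shCONTROL and 100.4, 87.8 and 90.1 in shBCLAF1. Its log2 fold change was 0.21 (SE 0.063), and its adjusted p of 0.0462 lay just under the threshold. That call was lost without any 1 of the 6 libraries (adjusted p 0.0501 to 0.0980), when the replicate number was a block (0.0895), and in the fit of all 9 libraries (0.555).

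MPO, the gene by which myeloid blasts are classically recognised, did not pass. MPO (ENSG00000005381, chromosome 17, 58269855 to 58280935) measured 82.9, 76.7 and 97.4 CPM in shCONTROL and 80.6, 77.7 and 80.6 in shBCLAF1. The shBCLAF1 values lay inside the range of the controls, and the log2 fold change was -0.10 (SE 0.090, adjusted p = 0.454). It was 0.0074 without shCONTROL replicate 3, so no direction can be given.

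LYZ (ENSG00000090382, chromosome 12, 69348381 to 69354234) measured 785, 671 and 730.3 CPM in shCONTROL and 2817, 2663 and 2432 in shBCLAF1. Every shBCLAF1 library lay far above every control, and the log2 fold change came to 1.86 (SE 0.080, adjusted p = 1.19e-04), and 1.24% of genes tested had a higher one. Of the counts of the 10 transcripts LYZ took 11.01% ± 0.318 in control cells and 23.4% ± 0.960 after knock-down (SD, n = 3 each). RNASE2 (ENSG00000169385, chromosome 14, 20955487 to 20956436) measured 182, 177 and 189 CPM in shCONTROL and 291, 261 and 215 in shBCLAF1. Its groups did not overlap, but the shBCLAF1 libraries were spread more widely than the controls, and the log2 fold change was 0.49 (SE 0.110, adjusted p = 0.0179). The call was lost without shCONTROL replicate 2 (adjusted p = 0.0530), without shBCLAF1 replicate 2 (0.0605), in the fit of all 9 libraries (0.0578) and in a test against a change of 1.2-fold (0.0934), over alternatives from 1.84e-05 to 0.0934. RNASE3, a paralogue of RNASE2 on chromosome 14, averaged 9.09 CPM in control cells and 20.4 after knock-down (log2 fold change 1.17, adjusted p = 0.00399), and how reads common to both genes were assigned is not given in the sources used here.

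Both protease inhibitors rose. SLPI (ENSG00000124107, chromosome 20, 45252239 to 45254564) measured 4.73, 4.56 and 5.09 CPM in shCONTROL and 36.3, 36.4 and 41.8 in shBCLAF1, or 154 to 183 counts against 1379 to 1532. Its 7.98-fold rise had a log2 SE of 0.090 (adjusted p = 7.97e-05), and 0.607% of genes tested had a higher fold change. SERPINB1 (ENSG00000021355, chromosome 6, 2832332 to 2841863) measured 80.1, 91.1 and 82.2 CPM in shCONTROL and 129, 123 and 118 in shBCLAF1. The log2 fold change was 0.55 (SE 0.065, adjusted p = 0.00168), with groups that did not overlap; in the fit of all 9 libraries its adjusted p was 0.0554, the highest of its alternatives, of which the lowest was 1.81e-15. SRGN (ENSG00000122862, chromosome 10, 69087603 to 69104811) measured 2341, 2090.4 and 2221 CPM in shCONTROL and 3818, 3521 and 3183 in shBCLAF1. Every shBCLAF1 library lay above every control, and the fitted log2 change was 0.67 (SE 0.078, adjusted p = 0.00169).

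**Figure D2:**
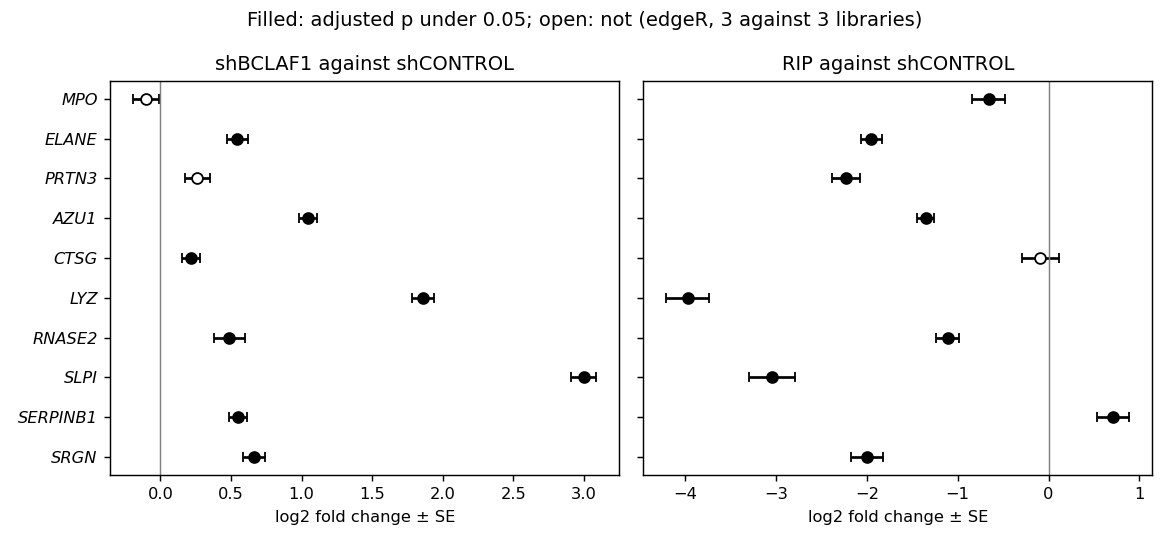
Log2 fold change ± SE of each granule transcript after BCLAF1 knock-down (left) and in the BCLAF1 RIP (right), both against the shCONTROL RNA-seq; filled points passed an adjusted p of 0.05. After knock-down the values run from -0.10 for MPO to 3.00 for SLPI, and in the RIP from -3.97 for LYZ to 0.71 for SERPINB1.

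AZU1, PRTN3 and ELANE lie in this order within 28.4 kb of chromosome 19. Their responses were also compared as ratios of counts within each library, which need no scaling. The ratio of AZU1 to PRTN3 counts was 0.284, 0.347 and 0.297 in shCONTROL and 0.496, 0.524 and 0.566 in shBCLAF1. The ratio of AZU1 to ELANE was 2.00, 2.25 and 2.09 in shCONTROL and 2.95, 3.03 and 2.98 in shBCLAF1. The ratio of ELANE to PRTN3 moved less, from 0.146 ± 0.00720 to 0.177 ± 0.0111 (SD, n = 3 each). In each of these ratios the groups did not overlap, and the exact two-sided permutation test gave p = 0.1, the smallest that 3 against 3 allows (adjusted p = 0.1 over 6 ratio tests), so the design cannot reach 0.05.

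**Figure D3:**
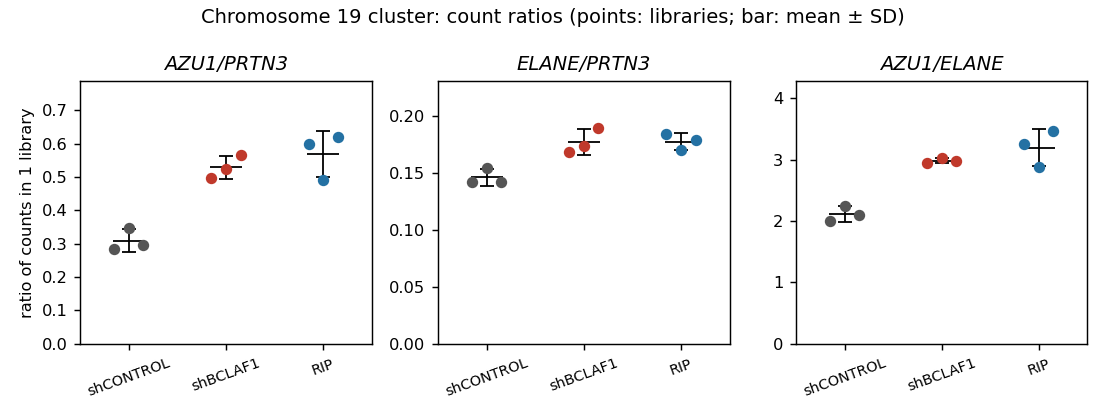
Ratios of the counts of AZU1, PRTN3 and ELANE within each library, on linear axes that start at 0; points are libraries, and bars are the mean ± SD of 3. The AZU1 to PRTN3 ratio averages 0.309 in shCONTROL, 0.529 after knock-down and 0.569 in the RIP.

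The neighbours of this cluster did not move as a block. Of 7 other tested genes around it, 1 was higher and 3 were lower after knock-down, against 15.5% and 16.9% of all genes. PLPPR3, a membrane protein gene, fell by 0.76 on the log2 scale (adjusted p = 0.00117), PALM fell by 1.34 (0.00322) and PTBP1, a splicing regulator, fell by 0.27 (0.00444), all by the edgeR test. R3HDM4 rose with a log2 fold change of 0.20 (adjusted p = 0.0204). CFD, complement factor D, which lies on the far side of ELANE and is itself a granule protein, had a control level of 132 ± 0.513 CPM and a knock-down level of 165 ± 27.0 (SD, n = 3 each) and did not pass (adjusted p = 0.0685). MED16 (log2 fold change 0.069) and ARID3A (-0.069) did not pass.

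Promoter sequences from RefSeq (GRCh38.p14) were matched for 5 of the 10 genes: AZU1, PRTN3, CTSG, RNASE2 and SERPINB1. The 250 bases before the annotated start were searched on both strands for TTGCNNAA, letters of the C/EBP type, and 3 of the 5 held a match, against 9.13% of 27305 promoter windows of the same length. AZU1 and PRTN3 held the same 8 letters, a match on the opposite strand, at positions -111 to -104 and -62 to -55 before the start, and RNASE2 held its match at -145 to -138. As AZU1 and PRTN3 are related neighbours, their matches may not be independent. These 3 windows are shown 5′ to 3′ on the gene's strand because they carry the matches, which are in capitals:
AZU1 (chr19:827587-827836, strand +): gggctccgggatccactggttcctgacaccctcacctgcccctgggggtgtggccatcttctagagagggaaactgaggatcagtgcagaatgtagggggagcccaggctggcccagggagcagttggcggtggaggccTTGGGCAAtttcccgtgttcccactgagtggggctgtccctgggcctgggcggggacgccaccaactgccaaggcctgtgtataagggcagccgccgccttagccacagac
PRTN3 (chr19:840749-840998, strand +): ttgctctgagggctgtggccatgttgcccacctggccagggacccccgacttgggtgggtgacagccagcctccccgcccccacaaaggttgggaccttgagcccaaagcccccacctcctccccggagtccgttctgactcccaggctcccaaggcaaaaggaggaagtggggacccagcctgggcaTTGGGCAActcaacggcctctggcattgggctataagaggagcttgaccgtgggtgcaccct
RNASE2 (chr14:20955237-20955486, strand +): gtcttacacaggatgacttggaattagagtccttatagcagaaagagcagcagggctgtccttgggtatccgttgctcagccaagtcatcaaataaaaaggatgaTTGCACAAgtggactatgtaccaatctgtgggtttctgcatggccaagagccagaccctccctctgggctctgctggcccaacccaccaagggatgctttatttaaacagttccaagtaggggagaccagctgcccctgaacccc
AGGAAG, a PU.1-type sequence, was found in 2 of the 5 (PRTN3 and CTSG), against 28.7% of all windows. AACNG, a MYB-type sequence, was found in 5 of the 5, against 70.6% of all windows, and TATAAA in 0 of the 5, against 11.1%. No match of the C/EBP type overlapped another of these matches. A match describes letters and not binding. RNASE2, PRTN3 and AZU1, with a C/EBP-type match, had knock-down log2 fold changes of 0.49, 0.26 (not passed) and 1.05. CTSG and SERPINB1, without one, had 0.21 and 0.55. A link between matches and response was not tested, and the other granule genes, SLPI and LYZ among them, had no promoter matched.

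RNA precipitated with BCLAF1 was set against total RNA of control cells, to see which granule transcripts were over- or under-represented in it. Of the 10 granule transcripts, 8 were lower and 1 was higher in the RIP libraries than in RNA-seq of shCONTROL (edgeR quasi-likelihood test, adjusted p under 0.05 over 16727 genes), against 24.7% of all genes lower, 24.6% higher and 49.2% in either direction. The median log2 fold change was -1.65, against -0.049 over all genes tested, and 7 of the 10 were lower by a log2 fold change of at least 1, against 13.6% of all genes. The reference used here was shCONTROL RNA-seq, with no mock precipitation analysed here, so recovery with BCLAF1 and background of the precipitation cannot be told apart. The RIP and the knock-down share the shCONTROL libraries, so their values are given side by side and are not independent. Scaling by total counts moved the median RIP value over all genes by -0.12, and the sign of every member's fold change was the same under TMM, DESeq2-type size factors and total counts.

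**Figure D4:**
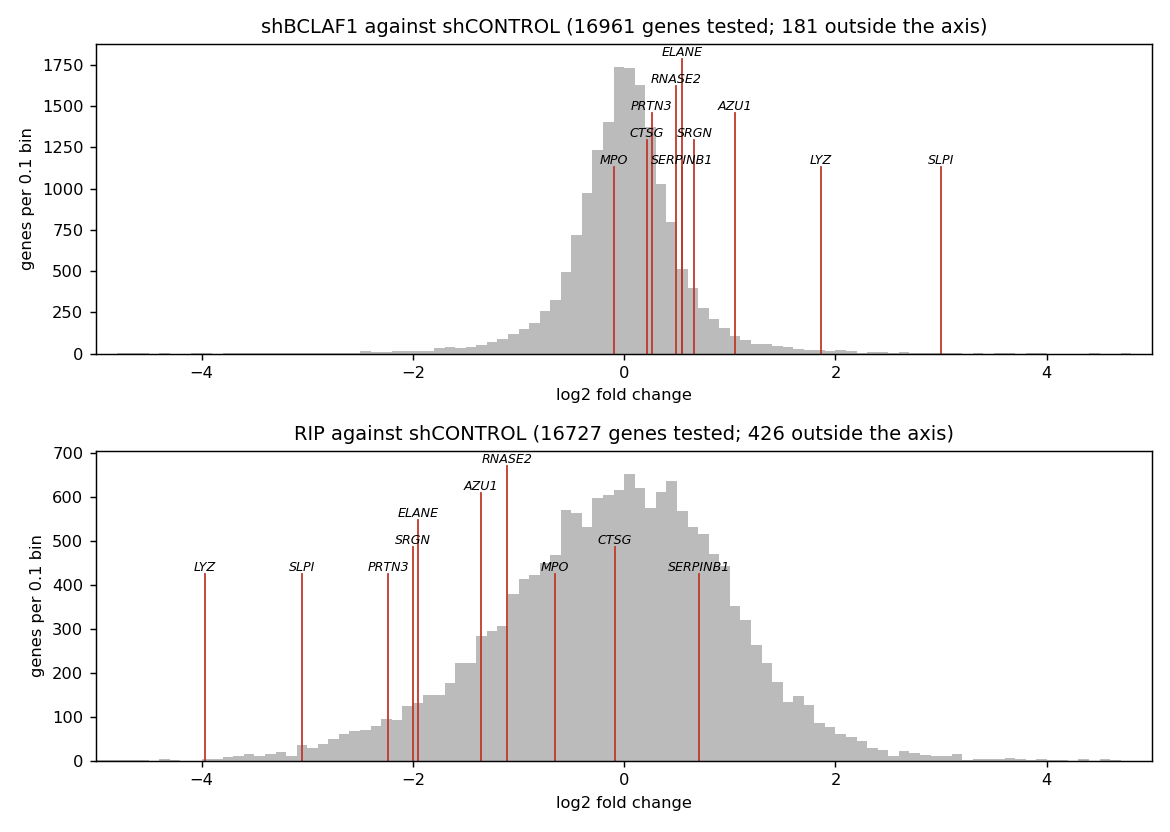
Distribution of log2 fold changes over all genes tested after knock-down (top, 16961 genes) and in the RIP (bottom, 16727 genes), as genes per bin of 0.1, with a red line at each granule transcript (the height of a line only separates the names). SLPI and LYZ lie in the upper tail after knock-down, at 3.00 and 1.86, and in the lower tail in the RIP, at -3.05 and -3.97.

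LYZ had the lowest RIP fold change of the 10. It measured 45.7, 34.3 and 60.3 CPM in RIP replicates 1, 2 and 3, or 6.37% of the shCONTROL level in the fit (log2 fold change -3.97, SE 0.234, adjusted p = 2.24e-04), and 1.66% of genes tested lay lower. SLPI measured 0.551, 0.460 and 0.729 CPM, from 14, 13 and 21 counts, above the floor of 3 counts (log2 fold change -3.05, SE 0.253, adjusted p = 4.17e-04). Both lay far under every control library. For 35.1% of all genes tested, all RIP libraries lay under all controls.

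Of the serine protease family, PRTN3 measured 475, 525 and 429 CPM in the RIP (log2 fold change -2.23, SE 0.156, adjusted p = 2.94e-04). ELANE measured 87.3, 89.2 and 76.6 CPM (log2 fold change -1.95, SE 0.112, adjusted p = 2.24e-04). AZU1 measured 284, 257 and 265 CPM (log2 fold change -1.35, SE 0.090, adjusted p = 2.74e-04). In these genes no RIP library reached the lowest control, as held for 35.1% of all genes tested. The AZU1 to PRTN3 ratio in the RIP was 0.598, 0.489 and 0.619, above all controls (exact permutation p = 0.1, the smallest possible).

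CTSG and MPO differed from that picture. CTSG measured 63.4, 61.5 and 103 CPM in the RIP. RIP replicates 1 and 2 lay under all controls and replicate 3 above them, and the log2 fold change of -0.09 (SE 0.207) did not pass (adjusted p = 0.739). Its sign turned without RIP replicate 1 or 2 (0.031 and 0.035), and without RIP replicate 3 it was -0.36 and passed (adjusted p = 0.0118). MPO measured 42.3, 56.2 and 65.1 CPM, all under the controls, as held for 35.1% of all genes. The log2 fold change of MPO was -0.66 (SE 0.183, adjusted p = 0.0262). Its call was lost without shCONTROL replicate 1 (adjusted p = 0.0695), without shCONTROL replicate 3 (0.0898), without RIP replicate 2 (0.0551) and in a test against a change of 1.2-fold (0.0540), over alternatives from 0.00703 to 0.0898.

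RNASE2 measured 89.2, 70.5 and 96.5 CPM in the RIP (log2 fold change -1.11, SE 0.127, adjusted p = 0.00103), about 46.4% of control in the fit. SRGN measured 541, 452 and 686 CPM (log2 fold change -2.00, SE 0.178, adjusted p = 5.05e-04). All 3 libraries were under all controls, as held for 35.1% of all genes. SERPINB1 was the 1 member higher in the RIP. It measured 119, 119 and 179 CPM there, every library above every control, as held for 31.9% of all genes, and the log2 fold change was 0.71 (SE 0.178, adjusted p = 0.0181). The call was lost without shCONTROL replicate 1 (adjusted p = 0.0696) or 3 (0.0679), over alternatives from 0.00175 to 0.0696, and without RIP replicate 3 the log2 fold change was 0.49. RIP replicate 3 was the highest of its group for 7 of the 10 transcripts, CTSG and SERPINB1 among them. The coefficient of variation in the RIP ran from 5.11% for AZU1 to 30.6% for CTSG, against 3.22% to 12.4% in shCONTROL and 2.10% to 15.0% in shBCLAF1.

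Other azurophil and eosinophil granule genes were described by a list of 23, of which 5 were at 0 in all libraries. After knock-down 14 of 18 tested were higher and 0 lower, against 15.5% and 16.9% of all genes. DESeq2 and an unadjusted p under 0.05 gave 15 and 0, and the median log2 fold change was 0.66. BPI, a protein that permeabilises Gram-negative bacteria, rose from 10.9 ± 0.421 to 43.9 ± 3.28 CPM (SD, n = 3 each; log2 fold change 2.01, edgeR adjusted p = 9.73e-05). The lysosomal hydrolase genes FUCA1, MAN2B1 and CTSD rose with log2 fold changes of 1.39, 0.57 and 0.70. In the RIP 15 of 17 tested were lower and 1 higher, against 24.7% and 24.6% of all genes, with a median of -1.03. PRSS57, a serine protease of azurophil granules, went from 165 ± 6.19 CPM in shCONTROL down to 23.6 ± 1.58 in RIP libraries (SD, n = 3 each; log2 fold change -2.81, edgeR adjusted p = 1.42e-04). PRG2 and CD63 had RIP log2 fold changes of -2.33 and -0.86, and both passed. After knock-down PRSS57 was 1 of the 4 tested genes of this list that were not called (log2 fold change -0.11, edgeR adjusted p = 0.466).

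Of 25 specific, gelatinase and secretory granule genes, 12 were at 0 in all libraries. Of the 11 tested after knock-down 5 were higher and 2 lower, against 15.5% and 16.9% of all genes, with a median of 0.59. Of the 8 tested in the RIP 0 were higher and 5 lower, against 24.6% and 24.7% of all genes. DESeq2 and an unadjusted p under 0.05 also gave 0 and 5, and the RIP median was -1.70. Both medians were the same with genes off in 1 group at their bound. CHI3L1 and QSOX1 rose with log2 fold changes of 0.59 and 0.92 after knock-down, and they had -1.03 and -1.72 in the RIP, all past the threshold. CD177, a neutrophil surface protein of specific granules, was at 0 in the shCONTROL libraries and held 74, 67 and 63 counts in shBCLAF1, at least 21.1-fold higher against a floor of 3 counts per library. PGLYRP1 went the other way, from 18, 24 and 15 counts to 0, at least 6.82-fold lower. A 0 in this table can stand beside high counts in a replicate (as for HBA2 in the RIP), so these bounds hold for the deposited values only. STOM and CFD were lower in the RIP, by log2 fold changes of -1.68 and -3.22.

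**Figure D5:**
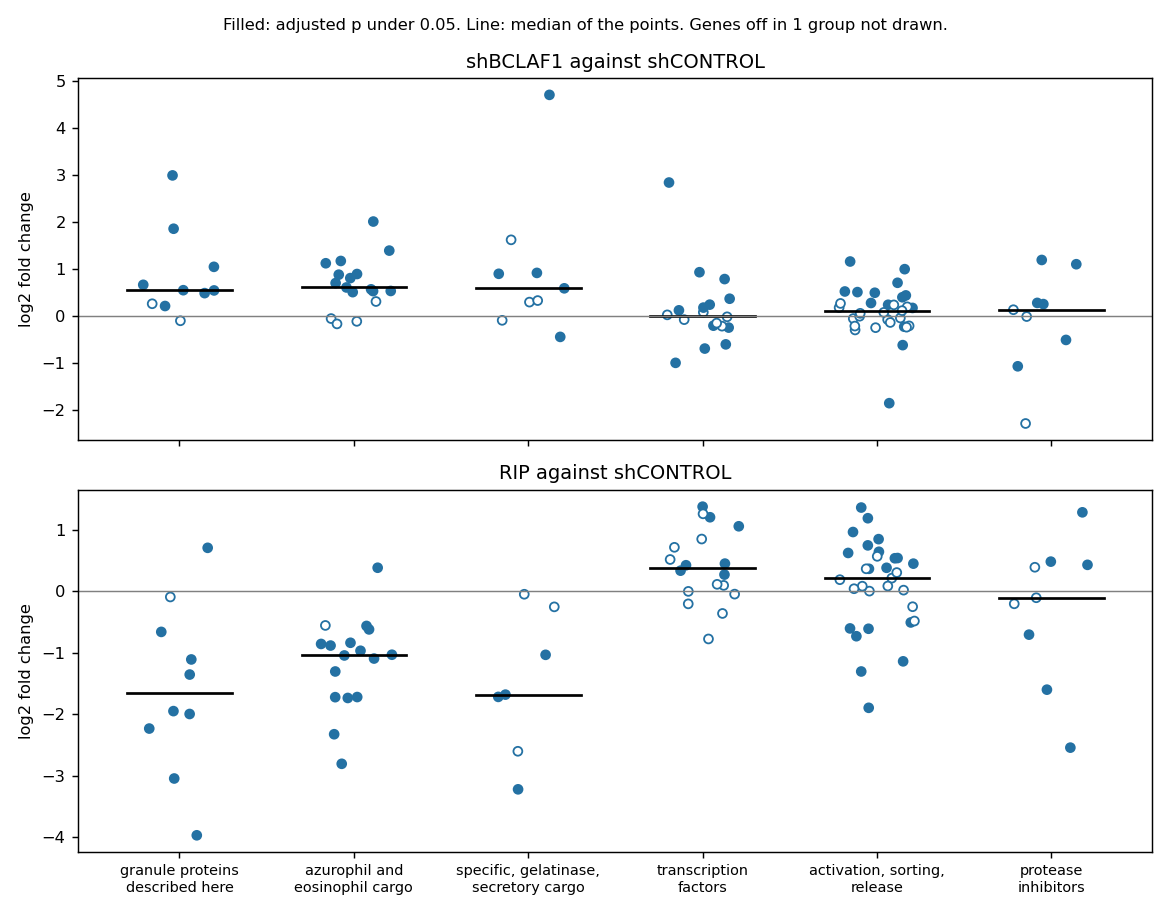
Log2 fold changes of the granule transcripts described here and of 5 lists of related genes, after knock-down (top) and in the RIP (bottom); each point is a gene tested, filled where the adjusted p was under 0.05, lines are medians of the points drawn, and genes off in 1 group are left out. The cargo lists lie mostly above 0 after knock-down and below 0 in the RIP, with medians of -1.03 and -1.70 there, whereas the median of the transcription factors in the RIP is 0.38.

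The transcription factors of granule genes were divided. Of 18 tested, 7 were higher and 5 lower after knock-down, against 15.5% and 16.9% of all genes, with a median log2 fold change of 0.0042. CEBPE, the factor of late granulocyte maturation, measured 1.76, 2.13 and 1.53 CPM in shCONTROL and 12.9, 11.8 and 14.2 after knock-down (log2 fold change 2.84, edgeR adjusted p = 2.06e-04). RARA, the retinoic acid receptor, rose with a log2 fold change of 0.79, while GATA2, a factor of progenitor cells, fell by 1.00 and CEBPG fell by 0.60. CEBPA, at 431 CPM in shCONTROL, did not pass after knock-down (log2 fold change 0.025, edgeR adjusted p = 0.777). CEBPB fell by 0.69 (edgeR adjusted p = 0.00224) and CEBPD rose by 0.93 (0.00143). SPI1, the gene of PU.1, rose by 0.37 (0.00418), and MYB fell by 0.25 (0.00625). In the RIP 7 were higher and 0 lower, at a background of 24.6% and 24.7%. At an unadjusted p under 0.05, 11 were higher and 2 (CEBPD and CEBPE) lower, and DESeq2 gave 11 higher and 0 lower. KLF4, CEBPZ, MYB and GFI1 had RIP log2 fold changes of 1.38, 1.06, 1.21 and 0.45, all past the threshold. Whether the listed factors, CEBPZ among them, act on granule genes was not tested.

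Genes of protease activation, sorting and release moved in both directions. Leaving out SRGN, 11 of 31 tested were higher and 3 lower after knock-down, against 15.5% and 16.9% of all genes, with a median of 0.11. RAB27A and STX11, which act in granule docking and fusion, rose with log2 fold changes of 1.00 and 1.16, AP3B1, an adaptor subunit of granule sorting, rose with 0.50, and the sulphotransferase gene CHST13 fell by 1.86. CTSC, the protease that activates the serine proteases, did not pass after knock-down (log2 fold change -0.05, edgeR adjusted p = 0.447) and was lower in the RIP (-1.30, adjusted p = 7.03e-04). In the RIP 12 of the 31 were higher and 7 lower, against 24.6% and 24.7% of all genes, so the lower count was near the share over all genes. G6PC3 and RAB27A were lower there, with -1.90 and -0.60, and CSGALNACT2, an enzyme of chondroitin sulphate synthesis, was higher, with 1.19.

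Of 11 other inhibitors of granule and lysosomal proteases tested after knock-down, 6 were higher and 2 lower, against 15.5% and 16.9% of all genes. Their median log2 fold change was 0.25. CST3 (cystatin C) rose from 115 to 123 CPM in shCONTROL to 258 to 285 in shBCLAF1, and SERPINB8 rose with a log2 fold change of 1.10. SERPINB10 and SERPINB2 were at 0 in shCONTROL and at least 36.7-fold and 21.2-fold higher in shBCLAF1, against the same floor. In the RIP 3 of 9 were higher and 3 lower, against 24.6% and 24.7% of all genes, so both counts were near the shares over all genes. The secreted cystatins CST3 and CST7 were lower there, with log2 fold changes of -2.54 and -1.60, as was the cytosolic CSTA, with -0.70. The cytosolic CSTB was higher, with 1.29, as was SERPINB1 among the 10 transcripts.

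By a rule of likeness, the 5 genes whose log2 CPM followed MPO most closely over the 9 libraries were SPRYD3, MRPL3P1, FAU, RPUSD2 and PUSL1, with Pearson's r from 0.965 to 0.981 among 12471 genes. These values describe 9 libraries in 3 groups that share their depth and group differences, and they carry no test. None of the 5 is a granule gene, and MRPL3P1 is a pseudogene whose reads can be shared with its parent.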

How the data were processed

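For 9 libraries the authors deposited a gene table whose values are each gene's estimated count (an expected count, not normalized). STAR 2.7.11b, StringTie 2.2.3 and hg38 are named in the submitters' processing notes; the annotation is not given in the sources used here. Libraries were stranded, depleted of ribosomal RNA and read in pairs of 50 bases, per the labels' protocols. All values were whole numbers. The 1 entry that names no gene (2.18% to 3.75% of counts in the 8 libraries where it had a value) was left out. Totals ran from 25819144 to 36635268 counts, and 3 counts, the floor, equalled 0.0819 to 0.116 CPM; these floors reflect counting error alone, as PCR duplicates cannot be separated. All columns carry 1 batch label.

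Each contrast was fitted on its own 6 libraries over all genes with edgeR 4.0.16 in R 4.3.3 (default filter, TMM, prior count 0.125, quasi-likelihood F-test, Benjamini-Hochberg, threshold 0.05). Standard errors are the log2 fold change divided by the square root of F. CPM use TMM over all 9 libraries. Replicates differed by more than counting noise (chi-square per degree of freedom 16.1 to 144). On simulated counts the fit gave nearly all changed genes their true direction but missed many changes, most of the smaller ones, and more in the RIP than after knock-down, so a gene that did not pass may still have changed. Alternatives included DESeq2 1.42.0, other scalings and filters, a replicate block and leaving out each library. Coordinates and promoters come from RefSeq (GRCh38.p14), matched by symbol. The genes described and all lists were chosen with earlier results of these data known. The 10 transcripts were named in every library, and of each list up to 4 genes with the smallest adjusted p past the threshold, with all tested neighbours of 3 gene clusters; the WFDC neighbours of SLPI had 0 genes tested after knock-down and 1, SEMG1, in the RIP (adjusted p 0.357). RNASE6, tested beside RNASE2, had log2 fold changes of 0.31 and -0.88 (adjusted p 0.0801 and 0.00297). A few genes named for their role or for values of 0 stand outside that rule. Those named for their role were CTSC and CFD, and, after knock-down, PRSS57, CEBPA, CEBPB, CEBPD, SPI1 and MYB. One gene that this rule names is not reported here.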

Additional observations from a re-analysis of the deposited data

How the results depend on the processing

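Each contrast was refitted under 15 alternatives. Of the resulting 300 fold changes of the 10 transcripts, 266 kept their direction and their side of the threshold, 27 lost a call, 4 gained one and 3 changed sign. SLPI, LYZ and AZU1 after knock-down, and ELANE, PRTN3, AZU1, LYZ, RNASE2, SLPI and SRGN in the RIP, passed under all 15. The 8 transcripts higher after knock-down became 5 in the fit of all 9 libraries and 3 when a change of 1 on the log2 scale was also required, and ran from 6 to 7 with 1 library left out; the cause was not tested for the first. The genes higher and lower over the whole table (2625 and 2859) became 1129 and 1318 in the fit of all 9 libraries, 307 and 389 with the minimum change, and 1135 and 1374 in a test against a change of 1.2-fold. Total counts as the scale turned their balance, with 3241 higher and 2487 lower (56.6% of calls higher, against 47.9%), and gave 3402 and 4550 in the RIP (42.8% higher, against 49.9%). In the RIP the 1 transcript higher became 0 with the minimum change and ran from 0 to 1 with 1 library left out, and the genes higher and lower became 1853 and 2281 with the minimum change. The signs that turned were those of MPO after knock-down (-0.17 to 0.0074 with 1 library left out) and CTSG in the RIP (-0.36 to 0.035); neither had passed. With the replicate number as a block, 7 transcripts were higher after knock-down, CTSG (log2 fold change 0.21) being lost, and in the RIP 1 was higher and 8 lower; all calls went from 5484 to 4809 and from 8231 to 6504. Replicates share a number only: the deviations of same-numbered libraries had correlations of -0.023 to 0.064, and not every library matched its own number best. CPM from total counts moved 4 of 30 group means by more than 1 SD. The 13 to 21 counts of SLPI in the RIP limit its precision there.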
